A study of Mus musculus with 4 samples.

Results

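Pomc and 7 transcription factors of the lineage that makes it (Tbx19, Pitx1, Lhx3, Isl1, Neurod1, Insm1 and Pax7) were described across the sorted POMC cells of the mouse pituitary. The 8 genes were chosen by name and hold 13 of the 33072 RefSeq transcript rows, and 8 of the 24063 genes, of the deposited table: 5 rows for Pomc, 2 for Lhx3 and 1 for each other gene. Melanotropes (2 libraries) are the POMC cells of the intermediate lobe and corticotropes (2 libraries) those of the anterior lobe. The lobes were separated by dissection from mice of strain C57B6 carrying the POMC-EGFP reporter, and GFP-positive cells were collected by flow cytometry. All 4 libraries therefore come from cells picked for expression from a Pomc-driven transgene, so a high Pomc level in both cell types is part of the selection. RNA was depleted of ribosomal RNA and read as 50 bp paired ends, with age and sex of the mice not given here. The sources used here do not say whether libraries of a cell type came from separate animals or sorts, so p-values measure only the spread between these libraries, which may be technical.

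Pomc encodes pro-opiomelanocortin, a prohormone that corticotropes cut to ACTH, the hormone that drives the adrenal cortex, and that melanotropes cut further to α-MSH. Tbx19 (also called Tpit) is the T-box factor found in the POMC lineages, where it activates Pomc together with the homeodomain protein Pitx1. Lhx3 and Isl1 are LIM-homeodomain factors of the developing pituitary, Neurod1 is a basic helix-loop-helix (bHLH) factor that binds an E-box of the Pomc gene in corticotropes, Insm1 is a zinc finger factor of endocrine cell differentiation, and Pax7 is the pioneer factor that sets melanotrope identity in mice.

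The sequences just upstream of 3 of these genes are shown because Pomc drives the reporter used for sorting, and Neurod1 and Pax7 had the largest differences in each direction. Each is the RefSeq window of 250 bases that ends at the base before the transcript start of the deposited row (build GRCm38.p6, given 5′ to 3′ on the gene's strand). Capitals mark matches to the E-box CANNTG or to the TATA box TATAAA, searched on both strands, and the matches do not overlap.
Pomc, chr12:3954695-3954944, plus strand: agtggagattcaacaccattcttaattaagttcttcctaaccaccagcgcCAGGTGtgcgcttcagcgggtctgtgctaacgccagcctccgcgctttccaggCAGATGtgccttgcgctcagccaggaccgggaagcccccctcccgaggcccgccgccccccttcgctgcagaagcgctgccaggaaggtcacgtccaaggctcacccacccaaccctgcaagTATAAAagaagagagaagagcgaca
Neurod1, chr2:79456637-79456886, minus strand: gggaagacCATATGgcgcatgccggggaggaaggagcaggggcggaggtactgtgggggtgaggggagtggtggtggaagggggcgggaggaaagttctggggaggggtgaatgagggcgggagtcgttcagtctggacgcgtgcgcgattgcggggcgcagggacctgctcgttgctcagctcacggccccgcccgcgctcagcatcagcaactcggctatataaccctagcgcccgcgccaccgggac
Pax7, chr4:139832969-139833218, minus strand: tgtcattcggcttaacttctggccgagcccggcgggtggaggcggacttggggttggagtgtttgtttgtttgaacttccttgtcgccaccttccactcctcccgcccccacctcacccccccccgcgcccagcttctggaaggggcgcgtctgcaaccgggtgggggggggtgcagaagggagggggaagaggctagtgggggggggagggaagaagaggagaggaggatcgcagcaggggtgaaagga
The Pomc window held 2 E-boxes, CAGGTG and CAGATG, whose first bases lie at -200 and -147 from the transcript start, and a TATA box at -25. The Neurod1 window held 1 E-box (CATATG, at -242) and no TATAAA, and the Pax7 window held neither. Of 32851 such windows over all genes, 66.2% held an E-box and 12.4% held TATAAA. A PITX motif (TAATCC, in 6.25% of windows) was found in the Isl1 window and in no other window of the members, and a T-box half-site (AGGTGTGA, in 1.12% of windows) in none. The search covered exact matches in these 250 bases only. It cannot show whether a factor binds the gene or which E-box Neurod1 binds, and binding was not tested. Windows were found for 6 of the 8 genes, with 2 for Lhx3, and Pitx1 and Insm1 had none.

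Values are labelled FPKM (fragments per kilobase of exon), so levels of different genes can be set side by side per length. As deposited, the columns summed to 729482 and 729482 in melanotropes and to 729485 and 729483 in corticotropes. The columns thus have a near-equal total, in which a larger Pomc share leaves less for other transcripts. They were divided by factors of 0.879 and 0.825 for melanotropes and 1.20 and 1.15 for corticotropes, from a trimmed mean of M values (TMM), and are called rescaled FPKM. The spacing of low values implied 146093468 and 149657535 reads over the longest transcripts in melanotropes and 97607571 and 187277815 in corticotropes. In the fit over 13048 genes (limma on log2(FPKM + 1), threshold an adjusted p of 0.05), 36.9% of genes were called, 17.7% higher and 19.2% lower in melanotropes. The scaling sets this split: 2312 genes were higher and 2501 lower, against 939 and 8787 on the deposited scale, where the median gene lay at -0.42 (log2), and 2852 and 1944 with equal sums of the transcripts other than Pomc. The sorted cells carried the markers of their labels, on lists chosen with earlier results of these data known, which is no independent check. All 4 melanotrope markers tested (Pcsk2, Drd2, Oacyl, Gulo) rose in melanotropes. All 4 corticotrope markers (Crhr1, Avpr1b, Nr3c1, Pcsk1) fell there. Avpr1b passed the filter only through the corticotrope libraries, and without either of these 3 of the 4 were tested and fell. All 13 markers of other anterior-lobe lineages fell, with a summed level of 14.7 and 62.4 rescaled FPKM in melanotropes and 5895 and 5686 in corticotropes. None of the 13 was listed at 0 in a corticotrope library, and 1 was in melanotrope replicate 1; without a corticotrope library 5 of the 13 pass the filter and all 5 fell. Posterior-lobe and glia markers summed to 33.2 and 37.2 rescaled FPKM in melanotropes and 26.0 and 27.3 in corticotropes, with 4 of 6 tested higher and 1 lower (3 of 6 higher without a corticotrope library, 2 of 4 tested without a melanotrope library). Blood and vessel markers summed to 9.43 and 9.23 rescaled FPKM in melanotropes and 30.1 and 41.4 in corticotropes, with 4 of 6 tested lower and 0 higher. Hba-a1 was among those that passed the filter only through the corticotrope libraries. Without corticotrope replicate 1 or 2, 4 were tested, with a median log2 difference of -1.35 and -0.92, against -1.15 with all libraries. The part of these other cells in the values below was not tested.

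Of the 8 genes, Pax7 and Lhx3 were called higher and Neurod1 and Pitx1 lower in melanotropes, while Pomc, Tbx19, Isl1 and Insm1 did not pass the test. These are 4 called of 8, beside the 36.9% called among all genes tested. In these bulk libraries fewer cells of a type and less RNA per cell cannot be told apart. The libraries of the cell types did not overlap for 7 of the 8 genes, the exception being Insm1, and they did not overlap for 71% of all genes. Without corticotrope replicate 1 or corticotrope replicate 2 the members called were Pax7 and Pitx1 alone. Neurod1 then falls under the expression filter of 1 FPKM in 2 libraries and is not tested. Without melanotrope replicate 1 or 2 they were Pax7, Pitx1 and Neurod1.

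**Figure D1:**
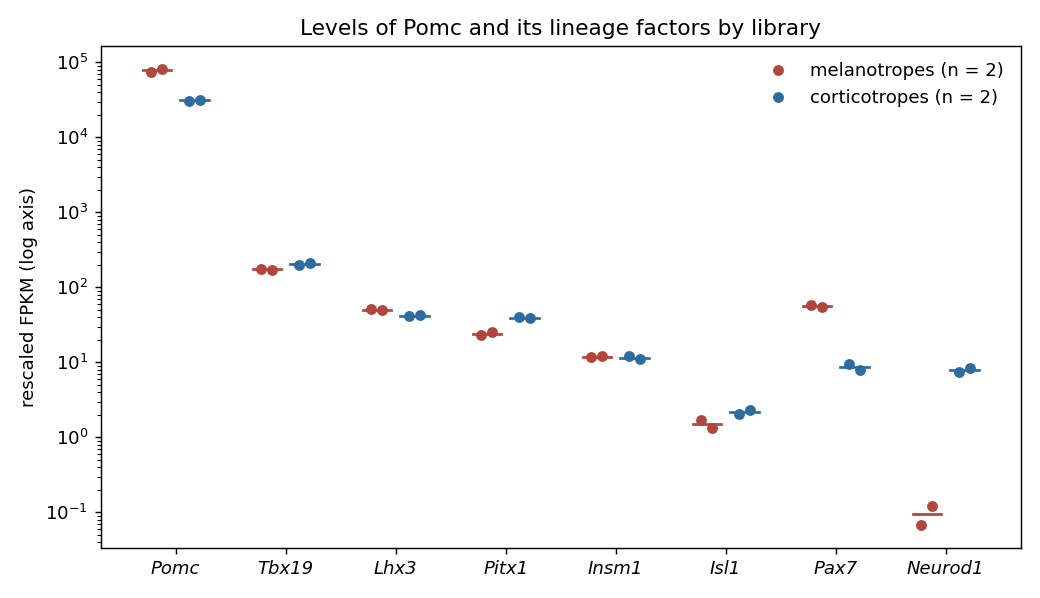
Rescaled FPKM (log axis) of the 8 genes in each library, melanotropes left of corticotropes; points are libraries and lines are means (n = 2). Pomc lies orders of magnitude above the factors, the cell types stand apart most for Pax7 and Neurod1, and the 4 Insm1 points intermix.

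Pomc was the most abundant gene in each melanotrope library and the values of its cell types lay apart. Its longest row (chr12:3954945-3960643, plus strand, 1208 bases of exon) had 75147 and 82090 rescaled FPKM in melanotropes, against 30754 and 31547 in corticotropes. Both melanotrope libraries were high and both corticotrope libraries low, with means of 78619 ± 4909 and 31150 ± 561 rescaled FPKM (SD, n = 2 each), a level 2.52 times as high in melanotropes. The log2 difference was 1.33 (SE 0.77, 95% interval -0.57 to 3.24), and with an adjusted p of 0.230 (limma) it did not pass the test. The spread of the Pomc libraries was 0.07 on the log2 scale, while the prior that limma drew from the trend over expression level was 0.95 at Pomc, above which no gene lies. With a single prior variance for all genes the adjusted p was 2.46e-04 (range over 15 alternatives 2.05e-09 to 0.975), and the difference was positive in all 15 and called in 5. In the authors' deposited table the log2 fold change of this row was 1.36 with a false discovery rate of 1.01e-73, from a command that the header shows run on the FPKM table. That column is named corticotrope versus melanotrope, but its sign is positive where melanotropes are higher.

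The deposited, unscaled values showed how far Pomc outweighed other transcripts. Its 5 rows together took 49.7% and 50.9% of the summed FPKM in melanotropes, against 27.8% and 27.2% in corticotropes. Because rows of a gene share reads, this is no share of RNA, and with the longest row of each gene alone Pomc took 20.6% and 21.3% in melanotropes and 9.54% and 9.22% in corticotropes. It ranked 1 among genes in both melanotrope libraries, 1 in corticotrope replicate 1 and 2 in corticotrope replicate 2. The noncoding RNA gene Rpph1 ranked 2 in both melanotrope libraries and in corticotrope replicate 1. About 17476151 and 19155137 reads were implied for the longest row in melanotropes and 5147838 and 10059971 in corticotropes, so counting error is small beside the spread between libraries.

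The 5 Pomc rows gave nearly the same signal under different lengths. All start and end at the same bases and are 1003 to 1208 bases long. Deposited FPKM ran from 66042 to 78624 in melanotrope replicate 1 and from 67709 to 80599 in replicate 2, against 37032 to 44001 in corticotrope replicate 1 and 36143 to 42982 in replicate 2, in each case highest for the shortest row. The highest row exceeded the lowest by a factor of 1.19 in each library, close to the 1.20 between the longest and shortest lengths. Multiplied by length, the 5 values lay within 1.23% and 1.28% of each other in melanotropes and within 1.36% and 1.28% in corticotropes. All 5 rows matched GENCODE transcripts (release M21), 3 in number, which carry 1 and the same pair of coding exons, chr12:3958129-3958260 and chr12:3959893-3960465, 705 coding bases in all. The rows thus differ outside the coding part, and they are not independent measures of Pomc. Fitted as rows, the 5 were tested among 19850 transcript rows, of which 38.4% were called (18.7% higher and 19.7% lower). They had log2 differences of 1.34 and adjusted p from 0.0399 to 0.0478 (limma), against the 0.230 of the gene-level fit. The SE of the longest row was 0.39 there, against 0.77 at gene level. All 5 rows entered the trend that set their prior, and the part of this in the lower p was not tested. With all 4 libraries kept, 0 Pomc rows were called at a pseudocount of 0.1 (adjusted p 0.0851 to 0.102, limma) or with no filter (0.901 to 0.917). Under the median of ratios 1 was called (0.0485 to 0.0583), and under the other alternatives that keep 4 libraries all 5 were. Pomc also counts 5 times among the member rows. Among all 13 member rows 10 were called, and without 1 of the libraries between 2 and 3 were, with 0 Pomc rows in each case. The lowest and highest adjusted p of the Pomc rows were 0.244 and 0.270 without corticotrope replicate 1, 0.192 and 0.212 without corticotrope replicate 2, 0.273 and 0.307 without melanotrope replicate 1, and 0.323 and 0.360 without melanotrope replicate 2.

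**Figure D2:**
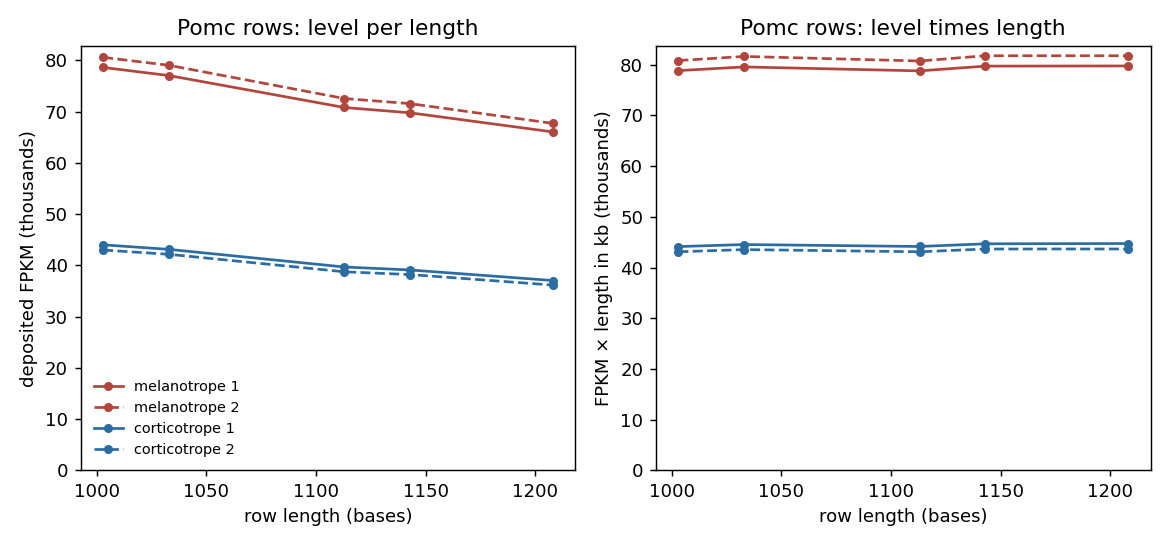
Deposited FPKM (left) and FPKM times length in kilobases (right) of the 5 Pomc rows against row length in bases, one line per library. The left lines fall with length and the right lines are nearly flat, with both melanotrope libraries above both corticotrope libraries.

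Tbx19 (chr1:165137853-165160773, minus strand), which activates Pomc in both cell types, was the most abundant of the 7 factors in each. It had 178 and 172 rescaled FPKM in melanotropes, against 201 and 212 in corticotropes. The melanotrope values were the lower ones and the groups did not overlap, with means of 175 ± 4.54 and 206 ± 7.64 (SD, n = 2 each). The log2 difference of -0.23 (95% interval -0.45 to -0.01) had an adjusted p of 0.0921 (limma) and did not pass. On the deposited scale it was -0.70 and called (adjusted p = 0.00122; range over 15 alternatives 0.00122 to 0.377).

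Pitx1 (chr13:55825054-55831425, minus strand), the partner of Tbx19 at the Pomc gene, was lower in melanotropes. It had 22.9 and 25.5 rescaled FPKM in melanotropes and 39.7 and 39.1 in corticotropes, with means of 24.2 ± 1.87 and 39.4 ± 0.438 (SD, n = 2 each). The groups lay well apart and the corticotrope libraries were close to each other. The log2 difference was -0.68 (SE 0.08, adjusted p = 0.00185, limma), and it was negative and called in all 15 alternatives, from -1.13 on the deposited scale to -0.60 with equal sums of the transcripts other than Pomc. Pitx1 is expressed across anterior-lobe cell types, and the markers of other anterior-lobe lineages given above were higher in the same corticotrope libraries. The part of those cells in the Pitx1 value was not tested.

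Lhx3 (chr2:26200212-26206575 for its longest row, minus strand), a LIM-homeodomain factor needed for the pituitary primordium, differed little. It had 51.2 and 49.3 rescaled FPKM in melanotropes, against 40.9 and 42.7 in corticotropes. The melanotrope libraries were both above the corticotrope ones, with means of 50.2 ± 1.32 and 41.8 ± 1.21 (SD, n = 2 each). The log2 difference of 0.26 (SE 0.07) was called higher with an adjusted p of 0.0381 (limma; range over 15 alternatives 0.00360 to 0.200). It was lost without any 1 library (adjusted p = 0.200 and 0.116 without corticotrope replicates 1 and 2, 0.162 and 0.0977 without melanotrope replicates 1 and 2), and on the deposited scale it turned to -0.19 (adjusted p = 0.0667).

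The 2 Lhx3 rows start at different promoters and carried similar levels. The row of 2219 bases starts at 26206575 and that of 2136 bases at 26208249, upstream of it on the minus strand. Deposited FPKM of the longer row were 44.96 and 40.66 in melanotropes and 49.30 and 48.87 in corticotropes. Those of the shorter row were 45.21 and 41.02 in melanotropes and 49.65 and 49.41 in corticotropes. Multiplied by length, the rows differed by 3.31% and 2.97% in melanotropes and by 3.15% and 2.75% in corticotropes. Reads of the exons they share enter both, so this does not tell which start was used.

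Isl1 (chr13:116298270-116309688, minus strand), the other LIM-homeodomain factor, was near the detection filter in both cell types. It had 1.72 and 1.35 rescaled FPKM in melanotropes, against 2.03 and 2.30 in corticotropes. The melanotrope libraries were lower and differed more from each other, with means of 1.53 ± 0.263 and 2.17 ± 0.191 (SD, n = 2 each). About 833 and 655 reads were implied in melanotropes and 710 and 1532 in corticotropes. The log2 difference of -0.33 (95% interval -0.61 to -0.05) did not pass (adjusted p = 0.0701, limma; range over 15 alternatives 0.00564 to 0.356). It was called on the deposited scale, at -0.62 (adjusted p = 0.00564).

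Neurod1 (chr2:79452641-79456636, minus strand), the bHLH factor of corticotrope differentiation, was nearly absent from melanotropes. It had 0.0683 and 0.121 rescaled FPKM in melanotropes and 7.55 and 8.35 in corticotropes, with means of 0.0948 ± 0.0375 and 7.95 ± 0.569 (SD, n = 2 each). The groups were far apart, with a mean level 83.9 times as high in corticotropes. On the log2(FPKM + 1) scale, which compresses low values, the difference was -3.03 (SE 0.10, adjusted p = 3.82e-05, limma). It was -5.38 with a pseudocount of 0.1 and -1.35 with one of 5, and was called in all 13 alternatives in which it was tested. The implied reads were 33 and 58 in melanotropes, with 95% Poisson intervals of 22.7 to 46.3 and 44.0 to 75.0 that cover counting error only, and 2605 and 5491 in corticotropes. The deposited melanotrope values of 0.06 and 0.10 are rounded to 2 decimals. In the authors' deposited table Neurod1 had a log2 fold change of -5.99 and a false discovery rate of 0.00240.

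Insm1 (chr2:146221997-146225018, plus strand), a zinc finger factor of endocrine cells, differed between the cell types by less than the spread of its libraries. It had 11.7 and 12.2 rescaled FPKM in melanotropes, against 12.0 and 10.9 in corticotropes, and the groups overlapped. Means were 11.9 ± 0.353 and 11.5 ± 0.734 (SD, n = 2 each). The log2 difference of 0.06 had a 95% interval of -0.14 to 0.26 and an adjusted p of 0.628 (limma; range over 15 alternatives 0.0145 to 0.981). On the deposited scale it turned to -0.37 and was called (adjusted p = 0.0145).

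Pax7 (chr4:139738081-139832968, minus strand), the melanotrope selector, had 57.37 and 54.76 rescaled FPKM in melanotropes and 9.584 and 8.004 in corticotropes. The groups were far apart, with means of 56.1 ± 1.84 and 8.79 ± 1.12 (SD, n = 2 each) and a level 6.38 times as high in melanotropes. The log2 difference was 2.55 (SE 0.10, adjusted p = 5.74e-05, limma), positive and called in all 15 alternatives, from 2.11 to 2.66. Pax7 was not at 0 in corticotropes, where 5662 and 9009 reads were implied. The 4 melanotrope markers, Pcsk2, Drd2, Oacyl and Gulo, summed to 225 and 172 rescaled FPKM in the same corticotrope libraries and to 1527 and 1350 in melanotropes. The part of melanotropes left in the corticotrope sort in the Pax7 level was not tested.

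In the authors' deposited table the other 5 genes missed a false discovery rate of 0.05. Pitx1 had 0.426 there with a log2 fold change of -0.65, and Tbx19, Lhx3, Isl1 and Insm1 had 1.00 with log2 fold changes of -0.22, 0.29 (longest row), -0.33 and 0.06. These lie close to the rescaled log2 differences above.

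**Figure D3:**
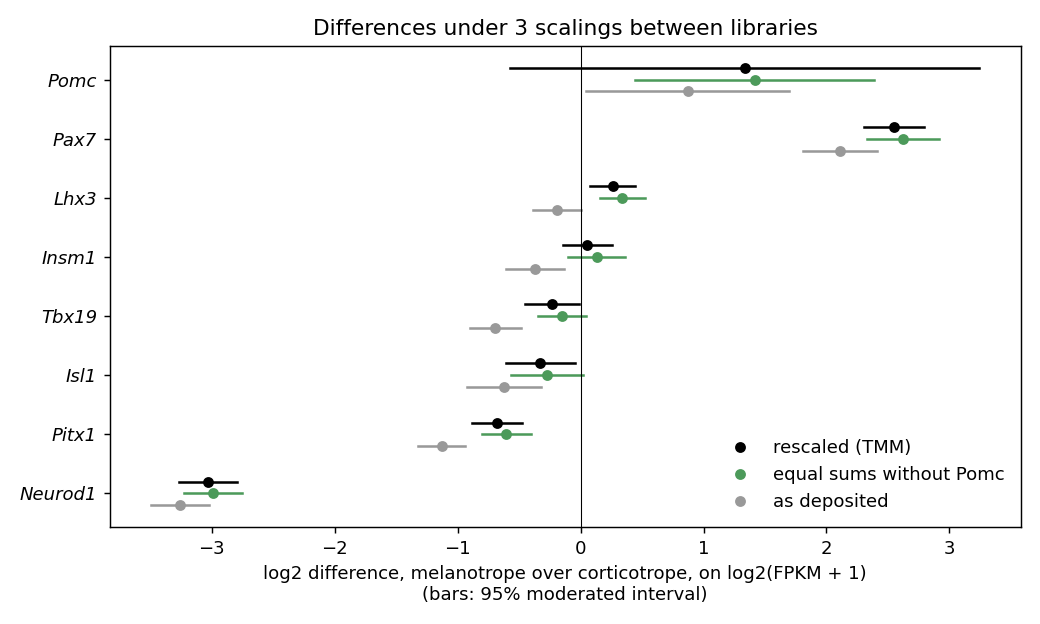
Log2 difference, melanotrope over corticotrope, on log2(FPKM + 1) for each gene under 3 scalings of the libraries; points are estimates and bars 95% intervals from limma. Pax7, Neurod1 and Pitx1 keep their side of 0 with intervals clear of it, Lhx3 and Insm1 turn to the lower side as deposited, and the Pomc interval is the widest.

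The order of the levels differed between the cell types. In melanotropes it ran Pomc, Tbx19, Pax7, Lhx3, Pitx1, Insm1, Isl1 and Neurod1, and no neighbours in that order overlapped, although Pax7 exceeded Lhx3 by a factor of only 1.12. In corticotropes it ran Pomc, Tbx19, Lhx3, Pitx1, Insm1, Pax7, Neurod1 and Isl1. There Pax7 and Neurod1 overlapped, and Lhx3 exceeded Pitx1 by a factor of 1.06. Tbx19 stood above 99.3% of genes in melanotropes and 99.4% in corticotropes. Pax7 stood above 96.6% of genes in melanotropes and 73.3% in corticotropes, and Neurod1 above 32.9% and 71.4%.

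Ratios of members within a library do not depend on the scaling between libraries. Pomc over Tbx19 was 421 and 477 in melanotropes, against 153 and 149 in corticotropes, 2.97 times as high in melanotropes. Pomc over Pitx1 was 3284 and 3215 in melanotropes and 775 and 808 in corticotropes, and Pomc over Lhx3 was 1469 and 1665 in melanotropes and 751 and 740 in corticotropes. Relative to each of these factors Pomc was thus higher in both melanotrope libraries. Tbx19 over Pitx1 was 7.79 and 6.73 in melanotropes and 5.06 and 5.42 in corticotropes. Isl1 over Lhx3 was 0.0336 and 0.0273 in melanotropes and 0.0497 and 0.0540 in corticotropes. Pax7 over Tbx19 was 0.322 and 0.319 in melanotropes, against 0.0477 and 0.0378 in corticotropes, 7.53 times as high in melanotropes. Pomc over Pax7 went the other way, at 1310 and 1499 in melanotropes and 3209 and 3941 in corticotropes. Pomc over Isl1, Neurod1 and Insm1 was 3.59, 220 and 2.42 times as high in melanotropes, where the low Neurod1 values make its ratio imprecise. The groups did not overlap for any of these 10 ratios, most of which share Pomc and are thus not independent. Of single genes 71% did not overlap, and the share among other pairs of genes was not computed. An exact two-sided permutation test of 2 against 2 cannot go below p = 0.333, the value of each ratio.

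**Figure D4:**
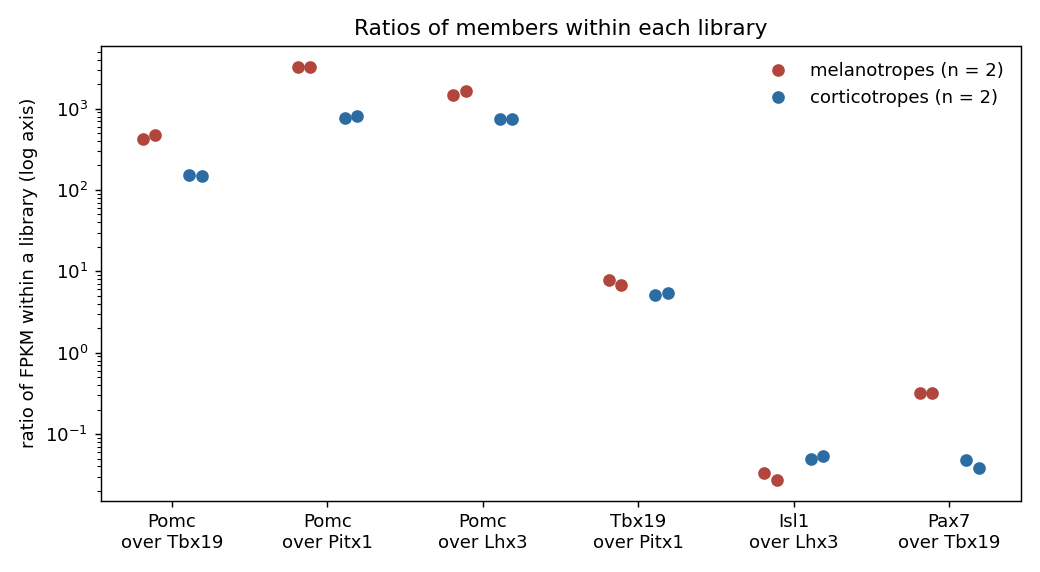
Ratio of the FPKM of 2 members within each library (log axis) for 6 of the ratios, melanotropes left of corticotropes (n = 2 each). Pomc over Tbx19, Pitx1 and Lhx3, Tbx19 over Pitx1 and Pax7 over Tbx19 lie higher in melanotropes, and Isl1 over Lhx3 lies lower.

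Other genes of the pathway were taken from 4 lists, and each list held genes moving both ways. Of 18 genes known to act on Pomc transcription 17 were tested, of which 5 rose and 7 fell in melanotropes, beside 17.7% higher and 19.2% lower over all genes tested, with a median log2 difference of -0.16 beside -0.01 over all genes. The glucocorticoid receptor Nr3c1, which represses Pomc, fell to 2.40 ± 0.0330 rescaled FPKM in melanotropes, against 51.8 ± 1.11 in corticotropes (log2 difference -3.96, adjusted p = 1.75e-05, limma). The coactivator Ncoa1 also fell (7.85 ± 0.750 in melanotropes, 13.5 ± 2.18 in corticotropes). The ETS factor Etv1 rose to 33.1 ± 0.780 in melanotropes, against 9.95 ± 0.0110 in corticotropes (log2 difference 1.64, adjusted p = 6.73e-05, limma). The orphan nuclear receptor Nr4a2, which binds Nur elements such as those of Pomc, rose to 78.7 ± 2.70 in melanotropes, against 29.1 ± 7.44 in corticotropes. On the deposited scale 4 of the 17 were higher and 12 lower, beside 939 higher and 8787 lower of the 13153 genes tested on that scale.

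Of 13 factors of the pituitary primordium 7 were tested, and the other 6, among them Lhx4, Lhx2, Hesx1, Otx2 and Sox3, were under the filter. The homeobox factors Six3 and Six6 and the HMG-box factor Sox2 rose and 2 fell, so that 5 of 7 were called beside 36.9% of all genes. The median log2 difference was -0.01, and it turned to 0.03 under the median of ratios, 0.07 with equal sums of the transcripts other than Pomc, 0.13 without corticotrope replicate 2 and 0.15 without melanotrope replicate 1. With no filter, 5 of all 13 were higher and 4 lower, beside 2332 higher and 2811 lower of 20297 genes. Six3 had 11.03 ± 0.0198 rescaled FPKM in melanotropes and 3.42 ± 0.187 in corticotropes, Six6 29.7 ± 0.562 in melanotropes and 17.3 ± 0.591 in corticotropes, and Sox2, also a marker of pituitary stem cells, 24.1 ± 1.73 in melanotropes and 14.5 ± 2.01 in corticotropes. Eya1, a transcriptional coactivator, fell to 2.77 ± 0.0327 in melanotropes, against 19.7 ± 0.627 in corticotropes (log2 difference -2.46, adjusted p = 3.82e-05, limma). Posterior-lobe and glia markers were higher in the same melanotrope libraries, and their part in these values was not tested.

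Of 14 partners of LIM and bHLH factors, all tested, 4 rose and 4 fell, beside 17.7% higher and 19.2% lower over all genes. The median log2 difference was -0.05, and it turned to 0.03 with equal sums of the transcripts other than Pomc and to 0.02 without melanotrope replicate 2. Id1, an inhibitor that sequesters bHLH partners, fell to 1.28 ± 0.00758 rescaled FPKM in melanotropes, against 6.45 ± 0.378 in corticotropes, while its relative Id4 rose to 28.1 ± 3.65, against 12.2 ± 3.40 in corticotropes. Id3 fell as well, at 3.42 ± 0.701 in melanotropes and 5.46 ± 0.752 in corticotropes. The LIM-only gene Lmo1 fell to 8.46 ± 1.48 in melanotropes, against 26.7 ± 1.31 in corticotropes, and Lmo4 rose to 21.1 ± 0.413, against 14.1 ± 2.35 in corticotropes. Ldb2, a cofactor that bridges LIM factors, rose to 3.47 ± 0.363 in melanotropes, against 1.91 ± 0.230 in corticotropes. The lower count was smaller without any 1 library, and it was 2 with no filter, where 2811 of 20297 genes were lower. On the deposited scale 2 were higher and 9 lower, beside 939 higher and 8787 lower of 13153 genes.

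Of 9 corepressors that act with INSM1 or in the same complexes, 1 rose and 3 fell, a share near the 36.9% called over all genes, with a median log2 difference of -0.12. Hdac2, a histone deacetylase, had 28.3 ± 0.0231 rescaled FPKM in melanotropes and 37.0 ± 0.539 in corticotropes. The demethylase Kdm1a had 32.6 ± 0.748 in melanotropes and 40.4 ± 0.361 in corticotropes, and Hmg20b 10.1 ± 0.369 in melanotropes and 12.9 ± 1.08 in corticotropes. Gse1 rose, at 13.8 ± 0.627 in melanotropes and 10.3 ± 1.56 in corticotropes. Leaving out libraries altered these calls: 1 was higher and 0 lower without corticotrope replicate 1 (limma), 0 higher and 2 lower without corticotrope replicate 2, and 0 higher and 1 lower without either melanotrope replicate. So did the scaling and the filter. As deposited 0 were higher and 8 lower, beside 939 higher and 8787 lower of 13153 genes. With equal sums of the transcripts other than Pomc 1 was higher and 1 lower, beside 2852 and 1944 of 13041 genes. With no filter 0 were higher and 2 lower, beside 2332 and 2811 of 20297 genes.

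**Figure D5:**
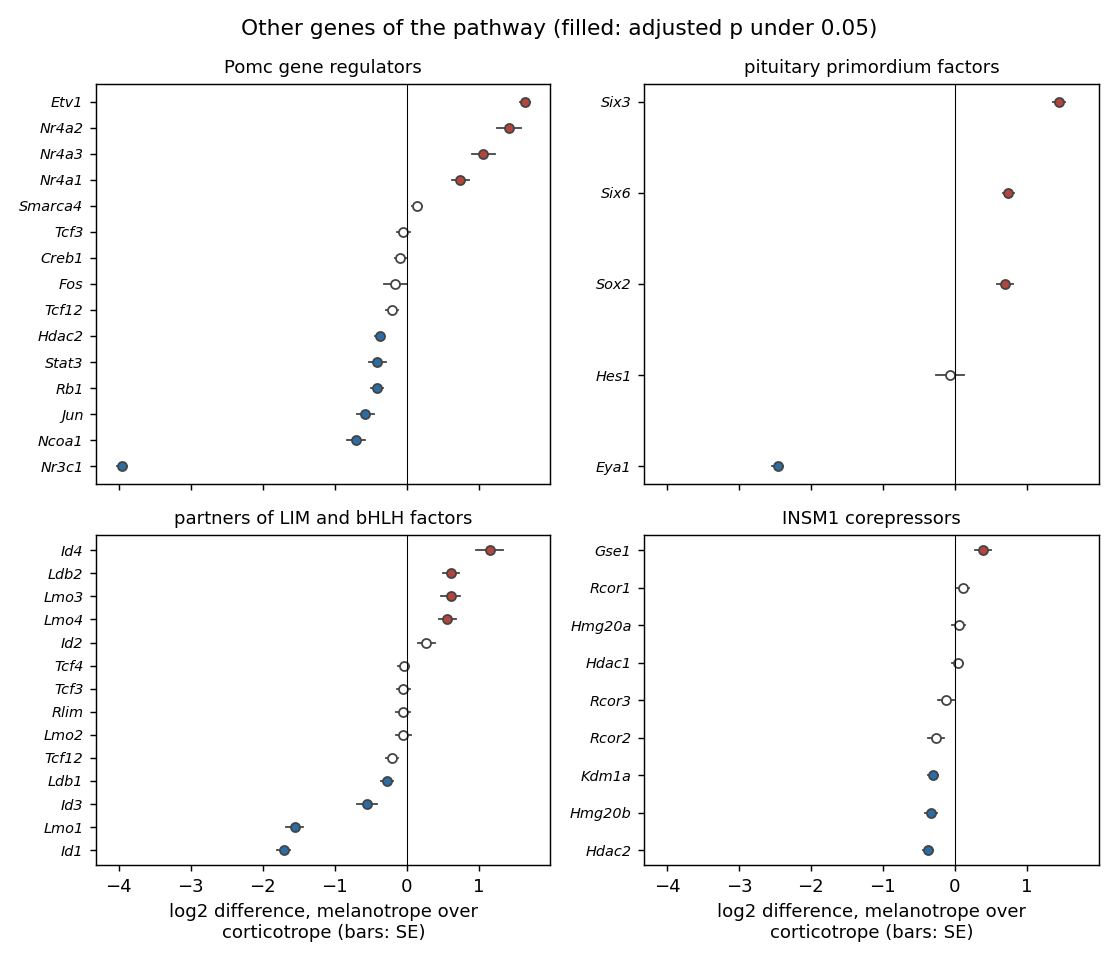
Log2 difference, melanotrope over corticotrope, with its standard error for tested genes of 4 pathway lists, without the genes not reported by name; filled points passed an adjusted p of 0.05 (limma). Each list has filled points on both sides of 0, and Nr3c1 at -3.96 lies farthest from it.

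The genes with the pattern nearest to each member over the 4 libraries were named by the smallest root mean square difference of centred log2(FPKM + 1), among 6032 genes that reached 10 rescaled FPKM in the higher cell type. Nearest to Pomc were Hpcal1 (0.0326) and Rcn2 (0.0339), and Hpcal1 had 32.2 and 37.6 rescaled FPKM in melanotropes, against 12.9 and 13.3 in corticotropes. Nearest to Pax7 were the kainate receptor gene Grik3 (0.0388) and the GDNF co-receptor gene Gfra1 (0.0560). Grik3 had 15.4 and 13.7 rescaled FPKM in melanotropes, against 1.98 and 1.47 in corticotropes. Nearest to Neurod1 were Alpk2 (0.0535) and Raver2 (0.0584), with Alpk2 at 0.990 and 0.958 rescaled FPKM in melanotropes and 14.6 and 14.9 in corticotropes. For the other members the nearest genes were Anapc7 and Mpp5 for Tbx19, Phactr2 and Tmem260 for Pitx1, Scoc and Mob4 for Lhx3, Rpa2 and Zscan26 for Isl1, and Mtmr9 and Pgls for Insm1. Their distances were 0.00352 (Mtmr9) to 0.0371 (Zscan26). With 4 libraries the measure mostly reflects the size of the difference between cell types on the log2(FPKM + 1) scale. For Neurod1 and Alpk2 that difference was -3.03 and -3.00. The scale compresses low values, and the levels themselves differed more for Neurod1. Its means were 0.0948 rescaled FPKM in melanotropes and 7.95 in corticotropes, against 0.974 and 14.8 for Alpk2.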

How the data were processed

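RNA-seq values of 2 melanotrope and 2 corticotrope libraries were used. Per the file headers, the authors obtained the FPKM columns, with 1 value per RefSeq transcript, from the HOMER command analyzeRepeats (exon counts, mm10). The deposited log2 fold changes, p-values and false discovery rates came from HOMER getDiffExpression, per the file headers. The deposited fold ratio equalled 10 to the power of the log2 value in 100% of rows and was not used. TopHat, HOMER, edgeR, GRCm38 and mm10 appear in the submitters' processing notes. The sources used here name no versions and no strand setting, so reads of overlapping antisense genes cannot be told apart.

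Columns were divided by TMM factors (unweighted; 30% of the M values and 5% of the A values trimmed at either end). The longest transcript stood for its gene, and a gene entered the test with 1 rescaled FPKM or more in at least 2 libraries. The test was limma 3.58.1 (R 4.3.3; trend, two-sided, Benjamini-Hochberg adjustment) on log2(FPKM + 1), which understates changes of low genes. It used 2 residual and 3.82 prior degrees of freedom and was tested on simulated data. Reads were implied from the spacing of FPKM times length in transcripts of up to 80 bases, of which 100% fell within 0.1 of a whole multiple in each library. Whether these units are reads or pairs was not tested. Alternatives covered scaling, pseudocount, filter, transcript choice, prior variance, left-out libraries and a replicate block.

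The members, lists and tests were chosen with earlier results of these data known. All 8 members were named. In each of 9 lists the rule named up to 3 genes per direction with the smallest adjusted p, and it named the 2 genes nearest in pattern to each member, leaving out symbols of predicted genes, small RNAs and Rik clones. Of the marker lists the text gives counts and summed levels. Oacyl, Pcsk1, Rpph1 and genes under the filter were named outside this rule. A few genes that the lists hold are counted but not reported by name here.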

Additional observations from a re-analysis of the deposited data

How the results depend on the processing

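Pax7, Pitx1 and Neurod1 kept their direction and their call under every alternative in which they were tested (15, 15 and 13). Neurod1 could not be tested without corticotrope replicate 1 or 2. Of the other log2 differences, those that turned were Lhx3 on the deposited scale (-0.19) and Insm1 on the deposited scale (-0.37) and without corticotrope replicate 2 (-0.0042; -0.0042 to 0.116 without 1 library). The cause of the turn without that replicate was not tested, while the deposited scale lowers the median gene to -0.42. Pomc was called with equal sums of the transcripts other than Pomc (1.41), a pseudocount of 5 (1.33), every transcript row as a feature (1.34), a single prior variance (1.33) and the replicate block (1.33), and its values without 1 library were 1.273 to 1.399.

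Of 4813 genes called, the count was 9726 as deposited (939 higher and 8787 lower, against 2312 and 2501), 7617 over transcript rows, 7228 with the replicate block and 3110 to 3497 without 1 library. Equal sums of the transcripts other than Pomc gave 2852 higher and 1944 lower. The members called were 4, with 7 under the replicate block (Tbx19 and Isl1 lower and Pomc higher in addition), 6 as deposited (Pax7 higher; Tbx19, Pitx1, Isl1, Neurod1 and Insm1 lower, thus 1 and 5 against 2 and 2) and 2 to 3 without 1 library. The member transcript rows called were 10, with 6 under the median of ratios, 5 with a pseudocount of 0.1, 5 with no filter and 2 to 3 without 1 library. Nothing but the number links same-numbered libraries in the labels. Their deviations correlated at 0.524 across 13048 genes. Because 2 pairs and a shared number do not establish a pairing, the block was kept as an alternative. The within-library ratios have no alternative. With 2 libraries a cell type, a left-out library leaves 1 that is assumed to vary like the others. Depth and rounding to 2 decimals limit the precision of Neurod1 in melanotropes.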
